A study of Mus musculus with 12 samples.

Results

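The genes of the proteasome were followed in mouse cumulus cells, which are granulosa cells that enclose the oocyte. Every row of the deposited expression table whose symbol matched Psma, Psmb, Psmc, Psmd, Psme or Psmg followed by a digit, or Psmf1, was taken, which gave 50 of 23997 rows. By role these were 8 alpha subunits of the core, 7 constitutive beta subunits of the core, 4 alternative beta subunits (the immunoproteasome subunits and the thymus-specific Psmb11), 6 ATPases of the regulatory cap, 11 non-ATPase subunits of the cap, 6 other activators or inhibitors and 7 assembly factors. The last row, Psmc3ip, encodes a meiotic recombination cofactor that shares the start of a symbol but is no proteasome subunit. Below, "core" means the 14 constitutive subunits Psma1 to Psma7 and Psmb1 to Psmb7, and "cap" the 17 Psmc and Psmd subunits of the cap.

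RNA came from C57BL/6J female mice that were either wild type (WT) or ClpP-/- (KO), aged 3 or 6 months, with 3 libraries in each of the 4 groups. ClpP is the proteolytic subunit of a protease of the mitochondrial matrix, so these mice lack a different protease from the one described here. Mice of every group were injected with pregnant mare serum gonadotropin (5 IU), a hormone that stimulates follicles to grow, and cumulus cells were collected 44 h later by the treatment protocol or 48 h later by the series description. Each library was made from 100 cells of a single mouse. The sources used here do not say how the ClpP allele was made or in which cells it is lost.

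The proteasome degrades proteins that carry ubiquitin chains. Its core is a barrel of alpha rings outside and beta rings inside, and 3 of the beta subunits hold the proteolytic sites: Psmb6 cuts after acidic residues, Psmb7 after basic and Psmb5 after hydrophobic ones. The cap binds ubiquitin, removes it, and unfolds the substrate with a ring of ATPases. In cells exposed to interferon, and in leukocytes, Psmb9, Psmb10 and Psmb8 replace Psmb6, Psmb7 and Psmb5, which changes the peptides made for class I antigen presentation. Subunit genes are known to be transcribed together, with the factor NRF1 (Nfe2l1) raising their output when the proteasome is inhibited. In the follicle, cumulus cells exchange metabolites with the oocyte, and proteasome activity is known to be needed for oocyte maturation.

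Expression was deposited as FPKM, fragments scaled to transcript length and to the mapped fragments of the library, a level that allows genes to be compared per length. The total count behind each library is not given by the table, so depth is unknown and no counting interval could be set. Clpp read 88.2, 130.02 and 146 FPKM in WT and 6.63, 1.10 and 2.07 FPKM in KO at 3 months, and 129, 124 and 114 FPKM in WT and 1.63, 0.769 and 6.32 FPKM in KO at 6 months. The low values matched the KO labels. All 9 granulosa markers listed read above 0 in every library, with summed levels of 3460 to 8870 FPKM over the 12 libraries. The sums rested mainly on Inha and Serpine2, and the lowest was in library 3 of the 3-month KO group. Foxl2 read only 0.582 and 0.695 FPKM in libraries 1 and 2 of the 3-month WT group. Library 3 stood apart in markers of other cells in both KO groups and in the 6-month WT group: 10 leukocyte markers summed to 218 (KO, 3 months), 475 (WT, 6 months) and 1286 (KO, 6 months) FPKM there and to between 4.19 and 74.4 FPKM in the other libraries. The leukocyte gene Ptprc was at 0 in all 3 WT libraries at 3 months. The KO libraries among them were also the highest in theca and stroma markers (7 genes, 1109 and 1341 FPKM, at most 140 FPKM elsewhere) and in oocyte markers (8 genes, 52.2 and 207 FPKM, at most 16.6 FPKM elsewhere). Library 3 of the 3-month WT group was low in leukocyte markers, at 24.4 FPKM, but stood apart from its group in erythroid markers (5 genes, 744 FPKM against 43.9 and 4.38 FPKM) and in theca and stroma markers (140 FPKM against 6.82 and 0.354 FPKM). Erythroid sums were also high in library 3 of the 3-month KO group (643 FPKM) and of the 6-month WT group (1166 FPKM). Median differences of the core and the cap that rest on the 3 marker-rich libraries first named are given with and without them. They are also given without library 3 of all 4 groups, an alternative chosen after seeing the data. In RNA from pooled cells, fewer cells of a type and less RNA per cell cannot be told apart.

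Core subunits were among the most abundant transcripts of these cells. Their mean levels over the 12 libraries ran from 438 FPKM for Psmb7 to 2066 FPKM for Psma2, against a median of 7.95 FPKM for the 11196 genes tested. All 14 core subunits and 13 of the 17 cap subunits ranked in the top 1000 genes of the table by mean level. Cap ATPases lay in a narrow band of means, from 211 FPKM for Psmc3 to 267 FPKM for Psmc6. Non-ATPase subunits spread more widely, from 53.8 FPKM for Psmd3 to 279 FPKM for Psmd14, the cap enzyme that removes ubiquitin chains. Immunoproteasome subunits were far lower, with means of 29.99 FPKM for Psmb9, 27.7 FPKM for Psmb10 and 23.7 FPKM for Psmb8. Among activators, Psme2 and Psme1, which form a ring that docks on the core, had means of 367 and 267 FPKM, while Psme3, Psme4, Psme2b and the inhibitor Psmf1 lay between 8.84 and 24.6 FPKM. Assembly factors ranged from 23.4 FPKM for Psmd9 to 133 FPKM for Psmg4.

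**Figure D1:**
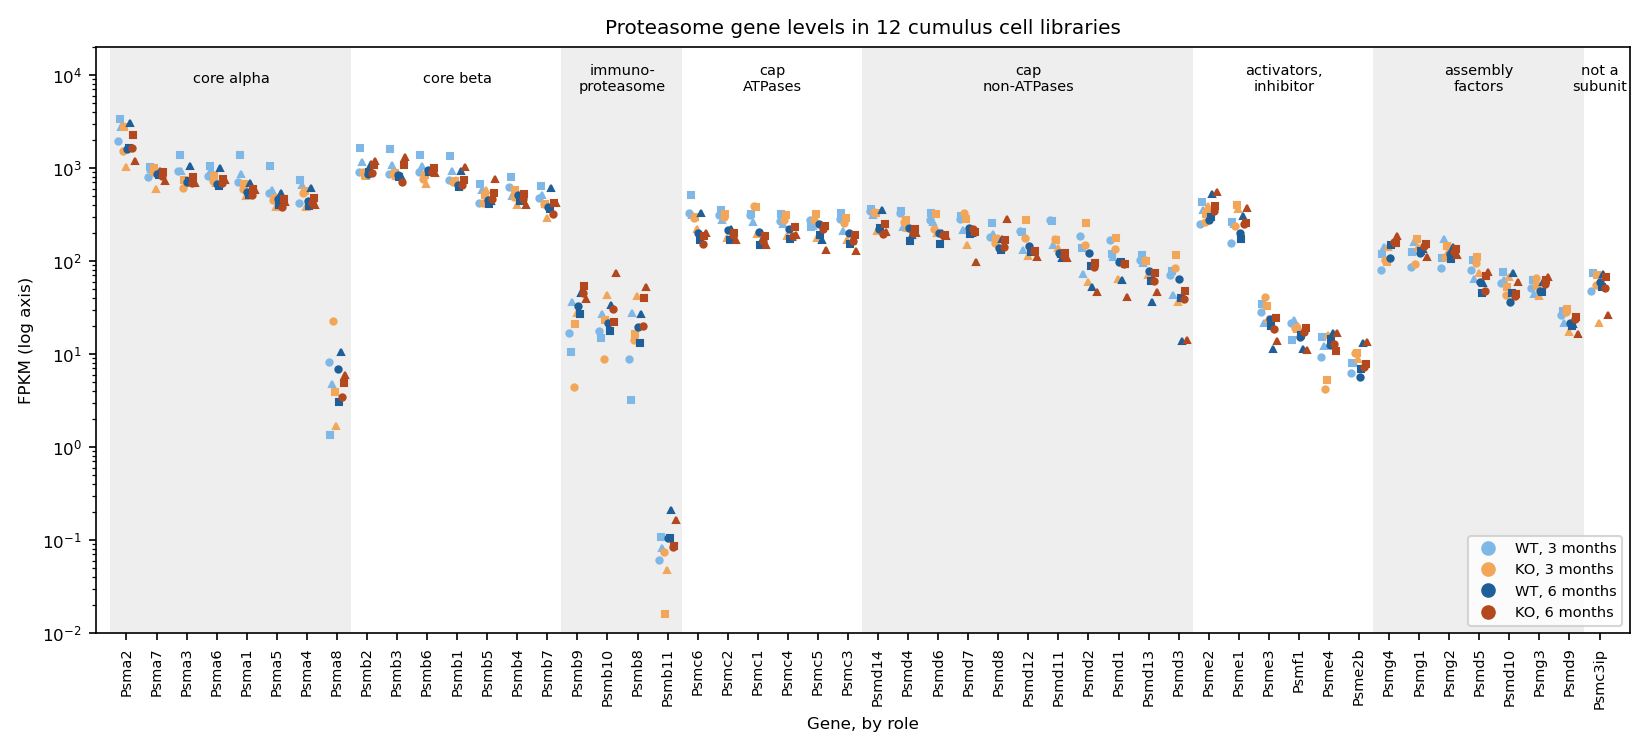
FPKM of the 50 genes on a log axis, ordered by role and by mean level within a role, with 1 point per library; colour gives the group and circle, square and triangle give libraries 1, 2 and 3. Core subunits other than Psma8 lie above most cap subunits, immunoproteasome subunits are far below both, and Psmb11 does not exceed 0.211 FPKM.

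Members at the bottom of the range are known from other tissues. Psmb11, the thymus-specific beta subunit, lay between 0.0159 and 0.211 FPKM and did not pass the filter of 1 FPKM in at least 3 libraries, so 49 of the 50 genes were tested. Psma8, the alpha subunit of testis proteasomes, read 8.13, 1.34 and 4.76 FPKM in WT and 22.7, 3.90 and 1.68 FPKM in KO at 3 months. At 6 months it read 6.86, 3.01 and 10.6 FPKM in WT and 3.46, 4.87 and 5.97 FPKM in KO. The highest Psma8 value was in library 1 of the 3-month KO group, and the groups overlapped in every comparison.

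Psma2 was the most abundant core subunit (alpha ring, chr13:14613240-14674236, plus strand, GRCm38). At 3 months it read 1973, 3346 and 2771 FPKM in WT and 1534, 2727 and 1020.2 FPKM in KO. At 6 months Psma2 read 1608, 1657 and 3083 FPKM in WT and 1639, 2246 and 1186 FPKM in KO. Both KO groups had their lowest value in library 3, and all group pairs overlapped. The annotated span of Psma2 overlaps that of AW209491 on the same strand, so how reads were divided between these genes is uncertain. Psmb2, a structural subunit of the beta ring, was the most abundant beta subunit. It read 894, 1649 and 1169 FPKM in WT and 902, 846 and 829 FPKM in KO at 3 months. At 6 months Psmb2 read 859.6, 904 and 1108 FPKM in WT and 893, 1074 and 1189 FPKM in KO. The 3 KO values at 3 months lay close together, and WT library 2 was far above the other WT libraries.

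No proteasome gene passed the test in any comparison. Differences were tested on log2(FPKM + 1) with limma over all 11196 genes, with Benjamini-Hochberg adjustment and a threshold of 0.05. Of the 49 genes tested, 0 passed for KO against WT at 3 months, where 0.00893% of all genes did; 0 at 6 months (0.0268% of all genes); and 0 for the average over both ages (0.0179%). None passed for the interaction of genotype and age (0 of 49; 0.00893% of all genes), for 6 against 3 months in WT (0 of 49; 0.00893%) or for 6 against 3 months in KO (0 of 49; 0.0179%). The smallest adjusted p among proteasome genes was 0.681, 1.0, 0.783, 1.0, 0.664 and 0.745 for these 6 comparisons in the same order. Differences between groups are therefore given as measured values, none of which passed the adjusted threshold.

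At an unadjusted p under 0.05 the count of members was highest for age in WT. There 10 of 49 proteasome genes lay under that p, all 10 of them lower at 6 months, against 7.44% of all genes in either direction. In KO the same age step had 3 of 49, of which 2 were lower and 1 higher (6.48% of all genes). For KO against WT at 3 months the count was 4 of 49, all lower in KO (6.8% of all genes), at 6 months 0 of 49 (1.22%), and for the average over both ages 1 of 49 (5.96%). The interaction had 0 of 49 (2.0% of all genes). These counts rested on single libraries. In WT the count for age was 3 without library 2 at 3 months (3.67% of all genes). Without library 2 at 6 months it was 2 (3.87%), and without library 3 of all 4 groups it was 20 (17.7%). In KO the count was 17 without library 3 at 3 months (11.8% of all genes). It was also 17 without library 3 of all 4 groups (13.6%). For KO against WT at 3 months it was 0 without WT library 2 (3.5% of all genes) and 8 without WT library 1 (5.63%).

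Cap subunits were lower at 6 months than at 3 months in both genotypes, by differences that did not pass the test. In WT all 17 cap subunits had a negative log2 difference, with a median of -0.63, while the median of all genes tested was 0.03. In KO 16 of 17 were negative, with a median of -0.52, against 0.01 for all genes, and Psmd8 was the exception. The medians of all genes are not matched to the cap for transcript length, and medians by length are given below. These age comparisons share no library, and 16 of 17 cap subunits were lower at 6 months in both, as were 5 of 14 core subunits and 31.7% of all genes tested. The 3 libraries of each age did not overlap for 14 of 49 proteasome genes in WT, all 14 lower at 6 months (7.81% of all genes were lower without overlap), and 0 were higher without overlap (7.94% of all genes). In KO, 5 of 49 were lower without overlap (5.98% of all genes) and 3 were higher (6.82%). Of the 14 in WT, 10 were cap subunits, and all 5 in KO were: Psmc1, Psmc6, Psmd4, Psmd6 and Psmd11. With the 3 marker-rich libraries left out, all 17 cap subunits were lower at 6 months in each genotype, with medians of -0.59 in WT and -0.58 in KO. Without library 3 of all 4 groups all 17 were again lower in each genotype, with medians of -0.65 and -0.58. Core subunits had a median age difference of -0.36 in WT, with 14 of 14 negative, which was -0.19 without library 2 of the 3-month WT group and -0.55 without library 3 of all 4 groups. In KO the core median was 0.04, with 5 of 14 negative, and it turned to -0.03 with libraries rescaled to equal sums without small RNA, to -0.06 with quantile normalization and to -0.09 with the marker-rich libraries, or library 3 of all 4 groups, left out. It was also -0.09 without library 3 of the 3-month KO group and -0.03 without library 2 of the 6-month KO group.

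**Figure D2:**
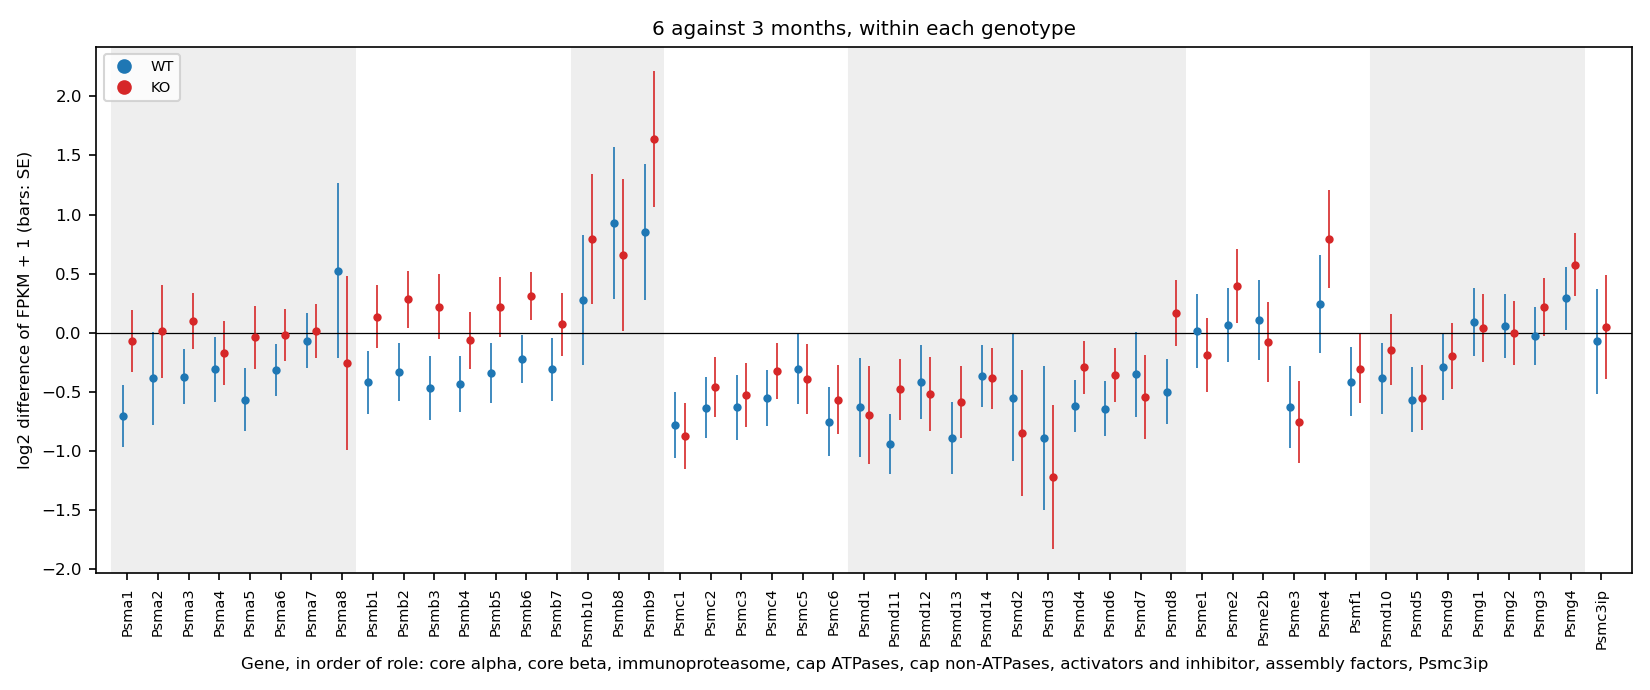
Log2 difference of FPKM + 1 between 6 and 3 months for the 49 genes tested, in WT and in KO, with the standard error from limma as bars; shading separates roles. The cap subunits lie below 0 in both genotypes apart from Psmd8 in KO, and the core subunits lie below 0 in WT and around 0 in KO.

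Psmc1, an ATPase of the cap ring (chr12:100110154-100123405, plus strand, GRCm38), had the smallest p of any proteasome gene for age in KO. It read 312, 322 and 262 FPKM in WT and 387, 378 and 195 FPKM in KO at 3 months. At 6 months Psmc1 read 205, 149 and 168 FPKM in WT and 165, 187 and 148 FPKM in KO. Every 6-month library lay below every 3-month library of its own genotype. The log2 difference was -0.87 (SE 0.28, unadjusted p = 0.00851 in limma) in KO and -0.78 (SE 0.28, unadjusted p = 0.0156 in limma) in WT. Library 3 of the 3-month KO group, at 195 FPKM, was far below the other 3-month libraries of that group, and without it the difference in KO was -1.20.

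Psmd11, a scaffold subunit of the cap lid (chr11:80428615-80473248, plus strand, GRCm38), had the smallest p for age in WT. At 3 months it read 278, 270.3 and 149.97 FPKM in WT and 173, 170.04 and 137 FPKM in KO. At 6 months Psmd11 read 122, 118 and 108 FPKM in WT and 113, 123 and 106 FPKM in KO. The 6 libraries of the 6-month groups all lay below the 6 libraries of the 3-month groups. The difference was -0.94 (SE 0.26, unadjusted p = 0.0032, adjusted p = 0.664, limma) in WT and -0.48 (SE 0.26, unadjusted p = 0.0866 in limma) in KO. Over the alternative analyses its adjusted p in WT, from limma, ran from 0.0588 to 0.995.

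Psmd13, another subunit of the lid, followed the same order of ages. It read 101, 115 and 95.6 FPKM in WT and 102, 99.7 and 70.6 FPKM in KO at 3 months. At 6 months Psmd13 read 78.01, 60.3 and 36.00 FPKM in WT and 60.6, 74.1 and 46.3 FPKM in KO. The WT ages did not overlap, while the KO ages did, because of KO library 3 at 3 months and library 2 at 6 months. The log2 difference in WT was -0.89 (SE 0.31, unadjusted p = 0.0131 in limma), and it was -0.59 without library 3 of the 6-month WT group.

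Psmc6, the most abundant ATPase of the ring, read 328, 516 and 312 FPKM in WT and 288, 295 and 222 FPKM in KO at 3 months. Levels at 6 months were 198, 168 and 328 FPKM in WT and 154, 186 and 201 FPKM in KO. The KO ages did not overlap, while library 3 of the 6-month WT group reached the level of the 3-month WT libraries. Psmd14 read 344, 358 and 315 FPKM in WT and 339.98, 325 and 208 FPKM in KO at 3 months. Its 6-month values were 223, 228 and 353 FPKM in WT and 197, 251 and 206 FPKM in KO. Here too WT library 3 at 6 months lay among the 3-month values, and both age pairs overlapped. Psmd8, a small lid subunit, was the cap gene that departed from the rest in KO. It read 179.7, 253 and 193 FPKM in WT and 155, 173 and 179 FPKM in KO at 3 months. At 6 months Psmd8 read 136, 131 and 172 FPKM in WT and 141, 168 and 286 FPKM in KO. Its KO difference with age, 0.17, rested on library 3 of the 6-month KO group, and the other 2 libraries of that group lay among the 3-month KO values or below them.

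The remaining cap subunits had differences with age between -0.89 (Psmd3) and -0.31 (Psmc5) in WT and between -1.22 (Psmd3) and -0.29 (Psmd4) in KO. Psmc2, Psmc3, Psmc4, Psmd1, Psmd4 and Psmd6 were lower without overlap in WT. Psmd4, a ubiquitin receptor of the cap, read 300.2 ± 58.1 FPKM in WT at 3 months and 194 ± 31.9 FPKM at 6 months (mean ± SD, n = 3). Its KO means were 255 ± 27.97 FPKM at 3 months and 207 ± 12.6 FPKM at 6 months (SD, n = 3). Psmd3, a lid subunit, had the widest spread of the cap, from 13.7 to 115 FPKM over the 12 libraries, with library 3 the lowest of every group.

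Relative to the core, the cap also varied between libraries of one group. The log2 ratio of the geometric mean of the 17 cap subunits to that of the 14 core subunits was -1.67, -2.27 and -2.31 in WT at 3 months and -1.64, -1.62 and -2.11 in KO at 3 months. At 6 months the ratio was -2.04, -2.26 and -2.69 in WT and -2.19, -2.30 and -2.69 in KO. Library 3 had the lowest ratio in all 4 groups. The KO ages did not overlap and the WT ages did.

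Transcript length moved with this ratio in the libraries with the lowest and highest length values, and less so in others. The longest coding transcript, in GENCODE M21, had a median of 1819 nt for cap subunits and 1162.5 nt for core subunits. In each library the median deviation of all genes with transcripts from 3000 to under 5000 nt was compared with that of genes under 1000 nt, each deviation taken from the gene's mean over the 12 libraries. This long-minus-short value was lowest, at -0.52 and -0.53, in library 3 of the 6-month WT and KO groups, where cap minus core was also lowest, at -0.54 and -0.53. It was highest, at 0.59, in library 1 of the 3-month WT group, where cap minus core was 0.47. Cap minus core was highest in libraries 1 and 2 of the 3-month KO group, at 0.50 and 0.52. Long minus short was 0.27 and 0.30 there. The 2 values had opposite signs in library 2 of the 6-month WT group (long minus short 0.10, cap minus core -0.11). They also did in library 1 of the 6-month KO group (0.19 and -0.04) and library 3 of the 3-month KO group (-0.01 and 0.04). Genes from 1000 to under 3000 nt, a range that held every cap subunit but Psmd1, were also lower at 6 months by median. Their median age differences, for a shorter and a longer class, were -0.13 and -0.14 in WT and -0.1 and -0.23 in KO. From 3000 to under 5000 nt the median was 0.03 in WT and -0.02 in KO. Genes under 1000 nt had 0.12 and 0.28, and genes of 5000 nt or more 0.31 and 0.32. The cap medians, -0.63 and -0.52, lay below all of these. With a smooth trend over length removed from each library, the median age difference of the cap was -0.45 in WT and -0.33 in KO, and 17 of 17 and 16 of 17 subunits stayed negative.

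**Figure D3:**
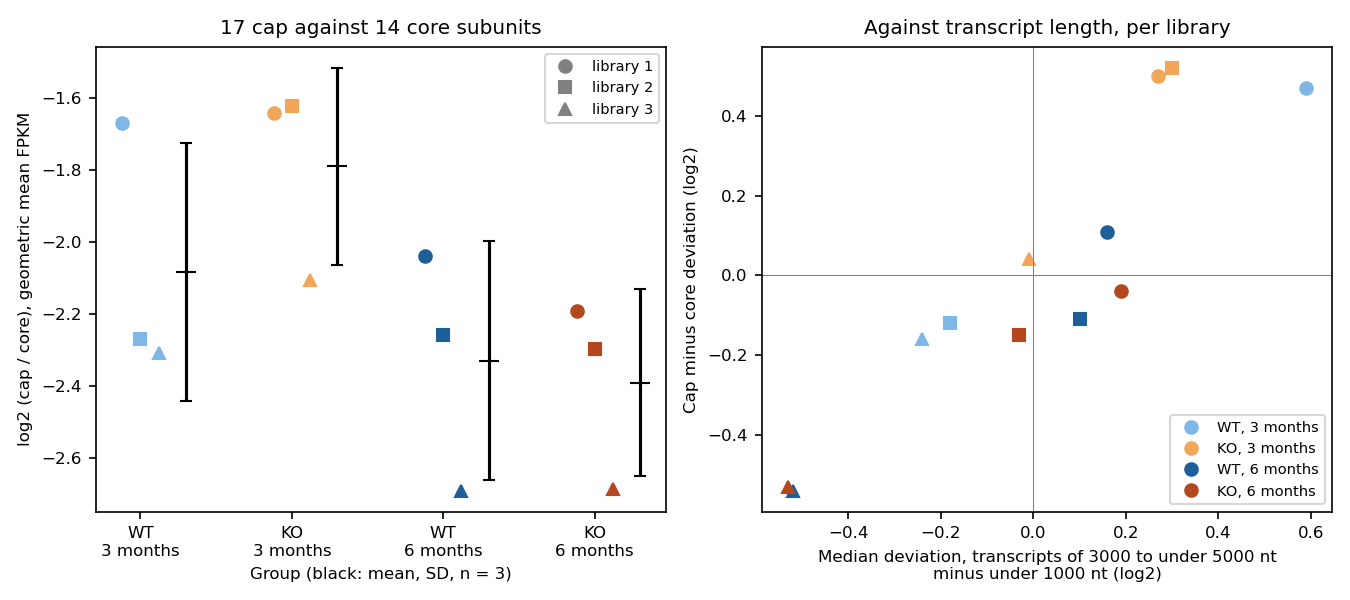
Left, the log2 ratio of cap to core subunits in each library by group, with mean and SD (n = 3) in black; right, the cap minus core deviation of each library against the deviation of long minus short transcripts over all genes. Library 3 of both 6-month groups lies lowest in both panels, and library 1 of the 3-month WT group lies at the upper right.

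Core subunits were lower in KO than in WT at 3 months, again without passing the test. All 14 had a negative log2 difference, with a median of -0.45 against 0.01 for all genes tested. The median of the 17 cap subunits was -0.21, with 13 negative. At 3 months 7 of 49 proteasome genes were lower in KO with no overlap of the libraries (5.22% of all genes) and 1 was higher (Psme2b; 5.02% of all genes). Of those 7, 5 were core subunits (Psma1, Psma3, Psma5, Psmb6 and Psmb7), and Psmc6 and Psmd8 were cap subunits. At 6 months 0 of 49 were lower without overlap (3.01% of all genes) and 1 was higher (Psmb5; 3.79%). The core median at 6 months was -0.05, with 10 of 14 negative, and the cap median was -0.11, with 12 of 17 negative.

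Single libraries bore on these medians. WT library 2 at 3 months was the highest in core subunits, with a geometric mean of 1172 FPKM against 579 to 869 FPKM in the other 11 libraries. Without it the core median for KO against WT at 3 months was -0.25. With the 3 marker-rich libraries left out, that median was -0.39, with 13 of 14 negative. The cap median at 3 months turned from -0.21 to 0.01, with 8 of 17 negative, and the core median at 6 months from -0.05 to 0.07, with 2 of 14 negative. Without library 3 of all 4 groups the core medians were -0.43 at 3 months and 0.07 at 6 months, and the cap medians -0.08 and 0.01. Leaving out single libraries also turned some of these signs. The cap median at 3 months was 0.01 without library 3 of the KO group. At 6 months leaving out WT library 1 turned the cap median from -0.11 to 0.07, and leaving out KO library 3 turned it to 0.05. The core median there turned to 0.05 when WT library 3 was left out. Other scalings kept the sign of the core median at 3 months, at -0.31 with libraries rescaled to equal sums without small RNA and -0.22 with quantile normalization. The first of these raised the median of all genes in that comparison by 0.11, and it left 28 of 49 proteasome genes negative, or 57.1%, in place of 33, or 67.3%.

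**Figure D4:**
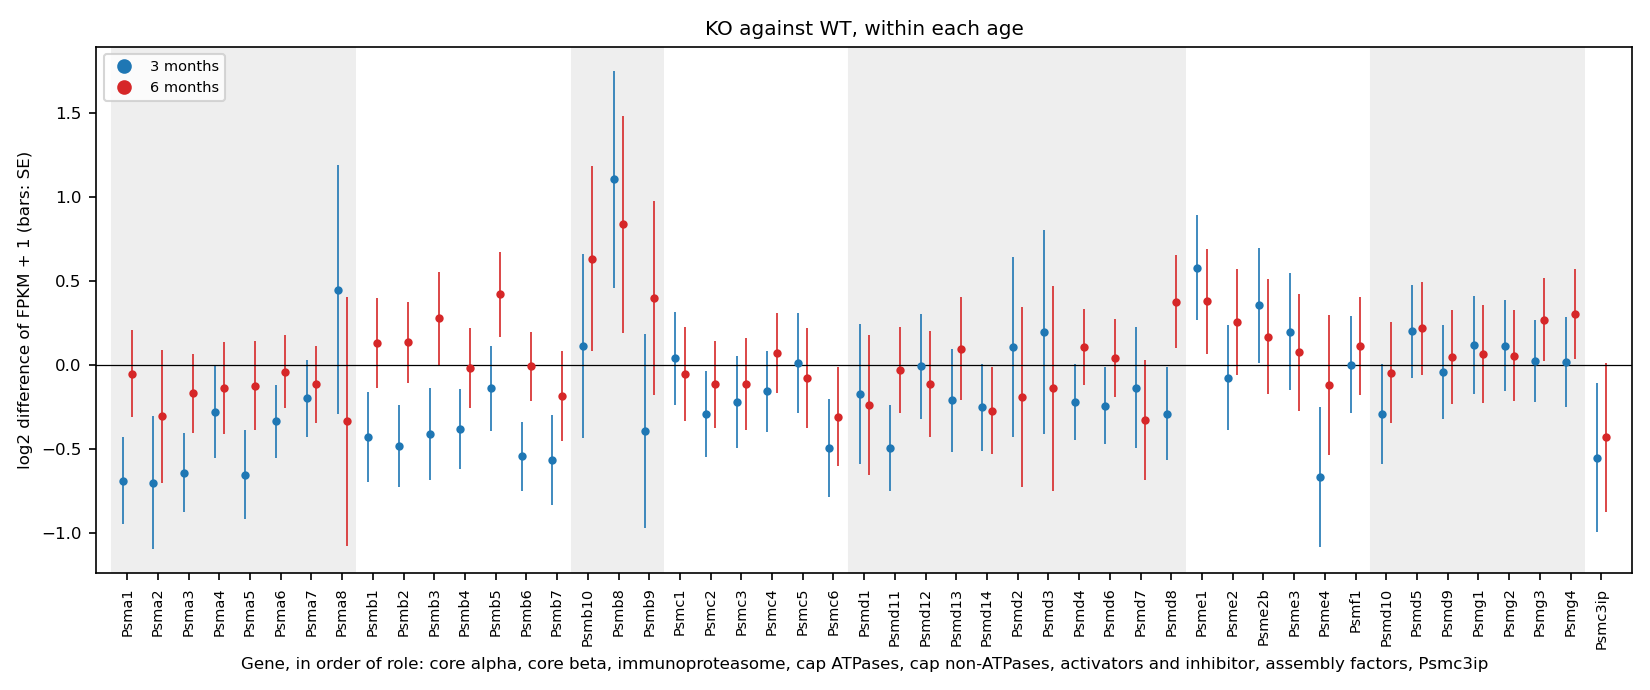
Log2 difference of FPKM + 1 between KO and WT for the 49 genes tested, at 3 and at 6 months, with the standard error from limma as bars; shading separates roles. At 3 months the core alpha and beta subunits apart from Psma8 lie below 0, and at 6 months they lie around 0.

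Psma3, an alpha-ring subunit (chr12:70974621-70996347, plus strand, GRCm38), had the smallest p of the proteasome genes at 3 months. It read 920.2, 1373 and 928 FPKM in WT and 607, 744 and 685 FPKM in KO at 3 months. At 6 months Psma3 read 715, 723 and 1045 FPKM in WT and 697, 799.5 and 683 FPKM in KO. At 3 months all KO values lay below all WT values, and at 6 months the genotypes overlapped. The difference was -0.64 (SE 0.23, unadjusted p = 0.0183, adjusted p = 0.681, limma) at 3 months and -0.40 (SE 0.17, unadjusted p = 0.0312 in limma) averaged over both ages.

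Psma1, also of the alpha ring (chr7:114264606-114276118, minus strand, GRCm38), read 711, 1378 and 869 FPKM in WT and 598, 681 and 501 FPKM in KO at 3 months. At 6 months it read 558, 509 and 689 FPKM in WT and 513, 596 and 575 FPKM in KO. The 3-month WT libraries lay above the libraries of all other groups. The log2 difference was -0.69 (SE 0.26, unadjusted p = 0.0215 in limma) for genotype at 3 months and -0.71 (SE 0.26, unadjusted p = 0.0188 in limma) for age in WT, and without WT library 2 at 3 months the first was -0.42.

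Psmb6, the constitutive subunit with the site for acidic residues (chr11:70525367-70527858, plus strand, GRCm38), read 911, 1379.7 and 1046 FPKM in WT and 762, 836 and 669 FPKM in KO at 3 months. Levels at 6 months were 958, 909 and 946 FPKM in WT and 914, 1006 and 881 FPKM in KO. The KO libraries were below the WT libraries at 3 months, and the 6-month KO values lay above the 3-month KO values without overlap. The difference was -0.54 (SE 0.20, unadjusted p = 0.0217 in limma) at 3 months and -0.01 at 6 months. Psmb7, with the site for basic residues, read 471, 646 and 517 FPKM in WT and 414, 409 and 287 FPKM in KO at 3 months. Its 6-month values were 378, 359 and 610.1 FPKM in WT and 317, 422 and 421 FPKM in KO. As with Psmb6, the genotypes were apart at 3 months and overlapped at 6 months.

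Psmb5 is the constitutive subunit with the site for hydrophobic residues (chr14:54614119-54618022, minus strand, GRCm38). It read 419.7, 679.6 and 576 FPKM in WT and 416, 516 and 575 FPKM in KO at 3 months. At 6 months Psmb5 read 452, 408 and 438 FPKM in WT and 467, 545 and 763 FPKM in KO. The genotypes overlapped at 3 months, and at 6 months every KO library lay above every WT library, by 0.42 (SE 0.25, unadjusted p = 0.123 in limma) on the log2 scale. Library 3 of the 6-month KO group was the highest, and without it the difference was 0.22. Processed copies named after Psmb5, Psmb6 and Psmb7 are annotated elsewhere in the genome, so reads of these 3 genes may have been split in the authors' mapping.

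The other core subunits are structural. At 3 months the differences of Psma4, Psma5, Psma6, Psma7, Psmb1 and Psmb4 between KO and WT ran from -0.65 for Psma5 to -0.20 for Psma7. At 6 months they ran from -0.14 for Psma4 to 0.13 for Psmb1. Psma5 had means of 719.6 ± 282 FPKM in WT and 439 ± 49.5 FPKM in KO at 3 months (± SD, n = 3). Its means at 6 months were 467 ± 70.4 FPKM in WT and 427 ± 41.1 FPKM in KO (± SD, n = 3). Library 2 was the highest of the 3-month WT libraries in all 14 core subunits. Psma7 varied least of the core, with an SD of 0.22 on the log2 scale over the 12 libraries.

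The interaction of genotype and age asks whether the KO minus WT difference was higher at 6 than at 3 months. All 14 core subunits had a positive interaction, with a median of 0.50, and the cap median was 0.11 with 8 of 17 negative. Over the 49 genes the median was 0.23, against 0.01 for all genes tested. The smallest unadjusted p values were those of the beta subunits Psmb6, at 0.53 (SE 0.29, unadjusted p = 0.0909 in limma), Psmb2, at 0.62 (SE 0.34, unadjusted p = 0.0977 in limma), and Psmb3, at 0.69 (SE 0.39, unadjusted p = 0.102 in limma). Psmb3, a structural subunit of the beta ring, read 855, 1611 and 1072 FPKM in WT and 858, 886 and 829 FPKM in KO at 3 months. At 6 months Psmb3 read 847, 801 and 822 FPKM in WT and 707, 1074 and 1308 FPKM in KO. WT library 2 at 3 months and KO library 3 at 6 months were its highest values, and the interactions of Psmb6, Psmb2 and Psmb3 were lower, at 0.37, 0.39 and 0.44, without that WT library.

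Immunoproteasome subunits were higher at 6 months in both genotypes, by values that did not pass the test. The median of the 3 genes tested was 0.85 for age in WT and 0.79 for age in KO. Differences of these genes are given with single libraries left out, and not with the 3 marker-rich libraries left out together. Psmb9 (chr17:34181987-34187764, minus strand, GRCm38) lies beside Tap1, a class I peptide transporter gene on the opposite strand that its annotated span overlaps. It read 16.6, 10.5 and 36.1 FPKM in WT and 4.39, 20.9 and 27.4 FPKM in KO at 3 months. At 6 months Psmb9 read 33.00, 26.9 and 45.8 FPKM in WT and 44.8, 54.1 and 39.2 FPKM in KO. The KO ages did not overlap, with a difference of 1.64 (SE 0.58, unadjusted p = 0.0148, adjusted p = 0.745, limma). Without library 1 of the 3-month KO group, at 4.39 FPKM, the difference was 0.90. Without library 3 of that group, which was marker-rich, it was 2.1.

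Psmb8 read 8.80, 3.21 and 27.4 FPKM in WT and 14.3, 16.5 and 42.4 FPKM in KO at 3 months. At 6 months it read 19.6, 13.1 and 26.6 FPKM in WT and 19.9, 39.7 and 52.8 FPKM in KO. The genotypes overlapped at both ages, and the average difference between KO and WT was 0.97 (SE 0.46, unadjusted p = 0.0548 in limma). It was 0.64 without library 2 of the 3-month WT group and 1.33 without library 3 of that group. At 6 months alone the Psmb8 difference between KO and WT was 0.84. It was 0.54 without the marker-rich library 3 of the 6-month KO group and 1.22 without library 1 of that group. Psmb10 read 17.7, 14.96 and 26.6 FPKM in WT and 8.86, 23.1 and 42.9 FPKM in KO at 3 months. Its 6-month values were 21.7, 17.7 and 33.3 FPKM in WT and 30.3, 22.1 and 73.7 FPKM in KO. The highest Psmb10 values were those of library 3 in each KO group.

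As a share of the summed FPKM of the 6 catalytic genes, Psmb8, Psmb9 and Psmb10 made up 2.34, 1.05 and 4.04% in WT and 1.70, 3.32 and 6.86% in KO at 3 months. At 6 months they made up 3.99, 3.33 and 5.04% in WT and 5.30, 5.55 and 7.43% in KO. At 6 months every KO library lay above every WT library, and at 3 months the genotypes overlapped. Markers of other cells were set beside this share. The 10 leukocyte markers summed to 8.99, 17.3 and 24.4 FPKM in WT and 15.1, 4.19 and 218 FPKM in KO at 3 months. At 6 months the marker sums were 18.3, 10.3 and 475 FPKM in WT and 16.1, 74.4 and 1286 FPKM in KO. The 2 highest shares, 7.43% and 6.86%, were in the KO libraries with leukocyte sums of 1286 and 218 FPKM, which were also the highest in theca and stroma markers (1341 and 1109 FPKM) and in oocyte markers (207 and 52.2 FPKM). The part of these cells in the difference was not tested. Among the 9 libraries that were not marker-rich, 6-month KO libraries 1 and 2, at 5.30% and 5.55%, had the highest shares. Their leukocyte sums were 16.1 and 74.4 FPKM, and 74.4 FPKM was the highest sum of these 9. Library 3 of the 6-month WT group, with a leukocyte sum of 475 FPKM, had a share of 5.04%. Library 3 had the highest share in every group. Of the 10 leukocyte markers 7 were tested, and all 7 were higher at 6 months in both genotypes, with 0 passing the test.

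**Figure D5:**
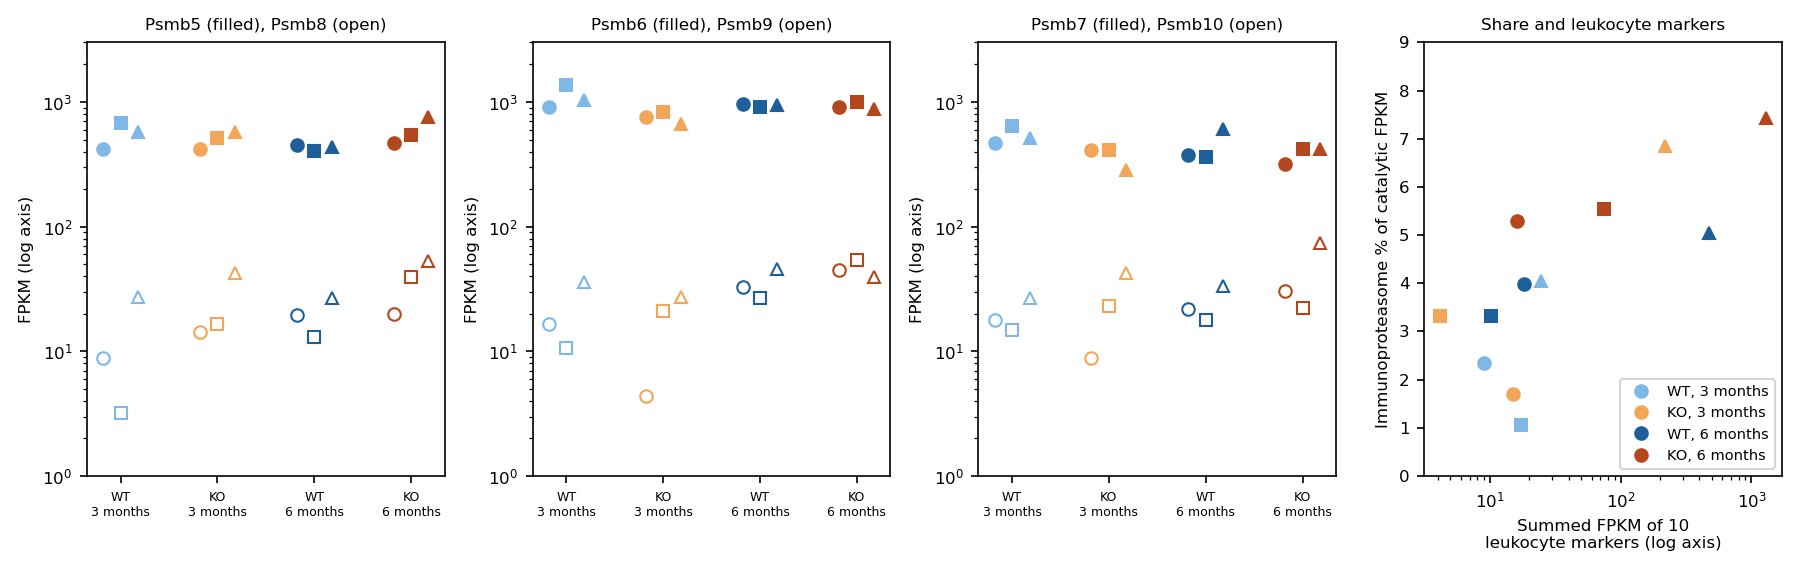
FPKM of each constitutive catalytic subunit (filled) and its immunoproteasome counterpart (open) per library on log axes, with circle, square and triangle for libraries 1, 2 and 3; the last panel sets the immunoproteasome share of catalytic FPKM against the summed FPKM of 10 leukocyte markers. Constitutive subunits exceed their counterparts in every library, and the 2 highest shares, 7.43% and 6.86%, belong to KO libraries with marker sums of 1286 and 218 FPKM.

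Genes of interferon response and class I presentation were read beside the immunoproteasome from a list of 9, of which 8 were tested. All 8 were higher at 6 months in WT, with a median of 0.55, and 6 of 8 in KO, with a median of 0.78, and 0 passed the test in either. These medians are not given without the marker-rich libraries. The summed FPKM of the 9 genes was highest in library 3 of every group, at 1640 FPKM in WT and 2470 FPKM in KO at 6 months. Their mean log2(FPKM + 1) at 6 months was 4.03, 3.83 and 3.97 in WT and 4.51, 4.04 and 4.54 in KO. H2-D1, a class I heavy chain, read 32.3, 16.6 and 55.7 FPKM in WT and 20.6, 72.6 and 37.9 FPKM in KO at 3 months. At 6 months H2-D1 read 59.2, 30.1 and 61.5 FPKM in WT and 142, 101 and 92.6 FPKM in KO. The 6-month KO libraries lay above all other libraries, with a difference of 1.49 (SE 0.50, unadjusted p = 0.012 in limma) with age in KO and 1.18 (SE 0.50, unadjusted p = 0.037 in limma) between genotypes at 6 months. Tap1 read 0.325 to 3.34 FPKM over the 12 libraries.

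Activators did not move as a block. Psme1 and Psme2 form the interferon-inducible activator ring. Psme2, the most abundant activator, read 249.7, 430.02 and 357 FPKM in WT and 265, 317 and 391 FPKM in KO at 3 months. Levels at 6 months were 277, 299.6 and 529 FPKM in WT and 348, 386 and 558 FPKM in KO, and the groups overlapped in every comparison. Psme1 (chr14:55578123-55581529, plus strand, GRCm38) read 155, 263 and 249.7 FPKM in WT and 237, 399.7 and 359.8 FPKM in KO at 3 months. Its 6-month values were 202, 172 and 301 FPKM in WT and 248, 253 and 367 FPKM in KO. The genotypes overlapped at each age, and averaged over both ages Psme1 was higher in KO by 0.48 (SE 0.22, unadjusted p = 0.0518 in limma).

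Psme3, the nuclear activator, read 28.01, 34.9 and 21.8 FPKM in WT and 41.3, 32.9 and 23.97 FPKM in KO at 3 months. At 6 months it read 23.9, 19.8 and 11.3 FPKM in WT and 18.7, 24.6 and 13.8 FPKM in KO. Both ages overlapped in each genotype, and the difference with age was -0.76 (SE 0.35, unadjusted p = 0.0497 in limma) in KO and -0.63 in WT. Psme4, a large single-chain activator, went the other way with age, by 0.25 in WT and 0.79 in KO, and read 4.21 to 16.9 FPKM over the 12 libraries. The inhibitor Psmf1 ranged from 11.04 to 23.3 FPKM, with age differences of -0.41 in WT and -0.31 in KO. Psme2b, at 5.69 to 13.6 FPKM, is a relative of Psme2 whose annotated span equals its transcript in length, as in an intronless copy, so its reads and those of Psme2 may have been divided by the mapping.

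Assembly factors had medians near 0 in every comparison, from -0.03 for age in WT to 0.09 for the average of KO against WT and for the interaction. Psmg1 to Psmg4 are chaperones of the core, and Psmd5, Psmd9 and Psmd10 are chaperones of the cap base. The cap chaperones were lower at 6 months, by -0.57, -0.29 and -0.39 in WT and by -0.55, -0.20 and -0.14 in KO for Psmd5, Psmd9 and Psmd10. Psmd5 and Psmd9 were lower without overlap in WT. The core chaperones lay between -0.03 and 0.29 in WT and between 0.00 and 0.57 in KO. Psmg4, the most abundant, read 80.3, 119 and 141 FPKM in WT and 102, 97.7 and 139.7 FPKM in KO at 3 months. At 6 months Psmg4 read 107, 147 and 156 FPKM in WT and 159.9, 156 and 187 FPKM in KO. Its KO ages did not overlap, with a difference of 0.57 (SE 0.27, unadjusted p = 0.0529 in limma). Psmc3ip read 47.7, 74.7 and 74.9 FPKM in WT and 54.6, 70.2 and 21.4 FPKM in KO at 3 months. Levels at 6 months were 60.1, 52.8 and 71.9 FPKM in WT and 51.5, 67.6 and 26.3 FPKM in KO. Library 3 was its lowest value in both KO groups, and the groups overlapped throughout.

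Other genes of the pathway were read from lists of assembly, receptor and associated enzymes (18 genes tested), transcriptional control by NRF1 and NRF2 (15 of 16 tested), and the segregase that extracts ubiquitinated substrates (6 tested). None of their genes passed the test in any comparison, with 0 called higher and 0 called lower. In WT the medians for age were -0.31, -0.11 and -0.43, and in KO they were -0.18, -0.17 and -0.22. The cap receptor Adrm1 and the small cap subunit Shfm1, whose symbols fall outside the rule, differed by -0.78 and 0.05 with age in WT and by -0.31 and 0.40 in KO. The core chaperone Pomp differed by -0.32 between KO and WT at 3 months and by 0.09 at 6 months.

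Nfe2l1, which encodes the transcription factor NRF1, had the opposite order of ages to the cap. It read 8.29, 9.59 and 8.31 FPKM in WT and 7.60, 5.00 and 8.32 FPKM in KO at 3 months. At 6 months Nfe2l1 read 13.9, 19.1 and 17.9 FPKM in WT and 18.01, 16.6 and 11.04 FPKM in KO. All 6-month libraries lay above all 3-month libraries, with differences of 0.87 (SE 0.29, unadjusted p = 0.011, adjusted p = 0.664, limma) in WT and 1.02 (SE 0.29, unadjusted p = 0.00422, adjusted p = 0.745, limma) in KO. Akirin2, a factor for the import of proteasomes into the nucleus, read 62.5, 78.6 and 33.4 FPKM in WT and 42.95, 46.6 and 42.2 FPKM in KO at 3 months. Its 6-month values were 26.1, 20.2 and 29.7 FPKM in WT and 19.1, 26.9 and 30.7 FPKM in KO. Here every 6-month library lay below every 3-month library, by -1.10 (SE 0.32, unadjusted p = 0.00534 in limma) in WT and -0.78 (SE 0.32, unadjusted p = 0.033 in limma) in KO. Zfand5, an activator of the cap, read 114, 70.9 and 26.02 FPKM in WT at 3 months and 16.6, 29.04 and 25.1 FPKM in KO. The KO difference at 3 months was -1.34 (SE 0.47, unadjusted p = 0.0155 in limma), and WT library 3 lay among the KO values.

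Subunits of one module mostly varied together between libraries of a group, with exceptions in each module. Deviations of each gene from its group means, over the 12 libraries, correlated with a median Pearson r of 0.70 over pairs of core subunits and 0.78 over pairs of cap ATPases. Single pairs ran from -0.13 to 0.98 in the core and from -0.13 to 0.95 in the cap ATPases. Pairs of cap non-ATPases had a median of 0.54 and ran from -0.70 to 0.95. Pairs of a cap ATPase and a cap non-ATPase had a median of 0.69, and pairs of a core subunit and a cap ATPase 0.46. Core subunits and cap non-ATPases had 0.23, and pairs drawn from all genes tested had 0.01. Immunoproteasome subunits went with each other at 0.69 and against cap ATPases at -0.53. Each point is a library, so depth, cell content and transcript-length bias are shared by both genes of a pair, and these values are descriptions. The SD of log2(FPKM + 1) over the 12 libraries had a median of 0.29 for the constitutive beta subunits, 0.40 for the cap ATPases, 0.97 for the immunoproteasome subunits and 0.52 for all genes tested.

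Promoters were read from RefSeq on GRCm38.p6, which held 42 of the 50 genes, as windows from 250 bases before to 50 bases after the start. Motifs were searched on both strands. The core of the antioxidant response element, TGACNNNGC, to which NRF1 and NRF2 bind, was in 6 of 42 members, or 14.29%, and in 13.99% of all 27025 genes with a window. The CCAAT box was in 15 of 42, or 35.71%, and in 41.06% of all genes. An interferon regulatory factor element, taken as GAAA repeated after any 2 bases, was in 5 of 42, or 11.9%, against 3.99% of all genes, and the palindromic element of nuclear respiratory factor 1 in 2 of 42, or 4.76%, against 1.07%. A match of these letters is a description and not a bound site. Psmb5 and Psmb6 held the antioxidant element core at positions -47 and -9 from the start, and Psme1 held the interferon element at position 9. The windows of Psmc1, Psmb9, Psmd4, Psma3 and Psma1 are shown as the 5 members with the smallest unadjusted p in any comparison that held a match, and those of Psmb5, Psmb6 and Psme1 were chosen after their matches were seen. Each runs 5′ to 3′ on the gene's strand, and capitals mark the matched motifs on either strand, so that ATTGG is a CCAAT box on the other strand.
Psmc1 promoter, chr12:100109952-100110251, plus strand: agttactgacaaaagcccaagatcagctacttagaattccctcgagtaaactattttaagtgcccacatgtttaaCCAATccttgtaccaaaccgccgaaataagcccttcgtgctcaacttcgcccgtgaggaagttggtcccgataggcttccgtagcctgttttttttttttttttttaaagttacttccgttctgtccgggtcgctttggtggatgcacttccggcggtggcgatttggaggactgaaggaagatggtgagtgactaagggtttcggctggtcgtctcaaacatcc
Psmb9 promoter, chr17:34187281-34187580, minus strand: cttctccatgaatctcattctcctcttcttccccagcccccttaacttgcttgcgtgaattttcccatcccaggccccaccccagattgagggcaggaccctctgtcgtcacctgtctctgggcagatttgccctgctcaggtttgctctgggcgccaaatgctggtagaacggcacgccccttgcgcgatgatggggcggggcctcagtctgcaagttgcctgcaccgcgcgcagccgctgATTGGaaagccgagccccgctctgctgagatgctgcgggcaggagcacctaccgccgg
Psmd4 promoter, chr3:95042565-95042864, minus strand: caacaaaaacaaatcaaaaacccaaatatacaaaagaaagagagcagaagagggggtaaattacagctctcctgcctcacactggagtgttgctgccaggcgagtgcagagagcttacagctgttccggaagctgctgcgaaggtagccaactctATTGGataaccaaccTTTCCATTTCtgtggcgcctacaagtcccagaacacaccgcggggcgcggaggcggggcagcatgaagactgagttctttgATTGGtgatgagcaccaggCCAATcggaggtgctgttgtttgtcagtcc
Psma3 promoter, chr12:70974373-70974672, plus strand: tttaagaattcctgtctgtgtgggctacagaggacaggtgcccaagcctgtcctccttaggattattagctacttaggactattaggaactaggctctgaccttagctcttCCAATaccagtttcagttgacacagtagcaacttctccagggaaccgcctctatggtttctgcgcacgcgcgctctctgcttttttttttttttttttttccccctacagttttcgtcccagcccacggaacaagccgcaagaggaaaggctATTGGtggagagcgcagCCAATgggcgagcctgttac
Psma1 promoter, chr7:114276067-114276366, minus strand: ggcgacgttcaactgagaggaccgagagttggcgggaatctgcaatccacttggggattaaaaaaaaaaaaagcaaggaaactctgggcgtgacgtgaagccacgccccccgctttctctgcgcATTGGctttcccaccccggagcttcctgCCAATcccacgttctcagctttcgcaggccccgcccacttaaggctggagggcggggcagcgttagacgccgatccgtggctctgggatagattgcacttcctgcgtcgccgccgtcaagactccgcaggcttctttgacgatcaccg
Psmb5 promoter, chr14:54617946-54618245, minus strand: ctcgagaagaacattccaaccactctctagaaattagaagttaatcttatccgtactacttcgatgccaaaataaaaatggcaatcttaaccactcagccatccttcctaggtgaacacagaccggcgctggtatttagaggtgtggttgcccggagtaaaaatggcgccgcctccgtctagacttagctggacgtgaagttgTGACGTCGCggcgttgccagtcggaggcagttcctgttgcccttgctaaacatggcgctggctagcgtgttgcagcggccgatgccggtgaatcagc
Psmb6 promoter, chr11:70525107-70525406, plus strand: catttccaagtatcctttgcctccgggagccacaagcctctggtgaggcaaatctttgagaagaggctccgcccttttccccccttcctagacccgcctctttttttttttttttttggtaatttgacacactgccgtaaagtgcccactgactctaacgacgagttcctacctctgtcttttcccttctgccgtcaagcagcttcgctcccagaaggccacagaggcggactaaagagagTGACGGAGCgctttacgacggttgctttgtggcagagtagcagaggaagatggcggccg
Psme1 promoter, chr14:55578244-55578543, plus strand: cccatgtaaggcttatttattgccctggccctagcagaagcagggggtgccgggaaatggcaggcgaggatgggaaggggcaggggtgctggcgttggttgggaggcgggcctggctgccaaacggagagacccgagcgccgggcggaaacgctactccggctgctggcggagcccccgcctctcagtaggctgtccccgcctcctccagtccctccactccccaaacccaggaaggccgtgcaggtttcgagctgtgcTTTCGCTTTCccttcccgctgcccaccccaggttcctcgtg
In these windows Psma3 and Psmd4 carry 3 CCAAT boxes each and Psma1 carries 2, while the immunoproteasome gene Psmb9 carries 1 CCAAT box and no match to the interferon element as spelled here. Psmd4 also carries 1 match to that element.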

How the data were processed

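RNA from 100 cumulus cells of each of 12 mice was made into libraries with Smart-Seq2 and Nextera XT and sequenced as 75 bp pairs, per the labels' protocols. The authors deposited FPKM values per gene. They used Cufflinks 1.2.1, TopHat2 2.0.10, SAMtools 0.1.18, Bowtie2 2.1.0, FastQC and cutadapt with GRCm38/mm10, per the submitters' processing notes. Their gene annotation was not given in the sources used here, and depth is unknown.

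Genes of at least 1 FPKM in at least 3 libraries (11196 of 23997 rows) were tested as log2(FPKM + 1), a pseudocount of 1, so fold changes of low genes are understated. Limma 3.58.1 in R 4.3.3 fitted 4 group means over 12 libraries (8 residual and 3.9 prior degrees of freedom, eBayes with trend). P-values are 2-sided, with Benjamini-Hochberg adjustment over all genes tested. The fit was tested on simulated data. Coordinates and lengths are from GENCODE M21, in which all 50 members were matched, and promoters from RefSeq. Python 3.11.15, numpy 2.4.6, pandas 2.3.3 and matplotlib 3.10.9 were also used.

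The members and the lists were chosen with earlier results of these data known. Values in every library are given for the 3 members with the smallest p in each comparison, the most abundant member of each role, the catalytic subunits of the core and immunoproteasome, and Psmc3ip; other lists give at most 2 genes by smallest p. Adrm1, Shfm1, Pomp and Tap1 were named after their values were seen. Libraries are separate mice, per the series description. The labels number libraries 1 to 3 in each group without saying what a number shares. Deviations of same-numbered libraries gave r of 0.158, 0.373 and 0.465 between genotypes at 6 months. Between ages in KO the r values were 0.114, 0.394 and 0.653, and all of these were above 0.1. Between genotypes at 3 months they were 0.0946, -0.0185 and 0.205, and between ages in WT 0.0319, 0.0303 and 0.278. The highest r of each comparison was that of library 3. That library was marker-rich in both groups compared at 6 months and in KO, but not in the 3-month WT group. Whether the numbers mark pairs is therefore uncertain. The main fit did not pair libraries, and a fit with the replicate number as a block was run as an alternative. Alternatives changed the pseudocount, filter, scaling, libraries, replicate block and prior, and the removal of the length trend and of library 3 of all 4 groups were added after seeing the data.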

Additional observations from a re-analysis of the deposited data

How the results depend on the processing

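Of 902 values recomputed for 38 results under 24 settings, 896 kept their direction and side of the threshold, or their value within the spread between libraries, and 6 moved. Medians were judged by that spread alone, so a change of sign within it counted as kept. The turn of the cap median for KO against WT at 3 months from -0.21 to 0.01 was such a case. The count of proteasome genes passing the test was 0 in all 6 comparisons under every setting run, the fit with the replicate block as a term included (0 called in each), which changed no call. The median for KO against WT at 3 months, -0.21, was -0.06 with the 3 marker-rich libraries left out, and ran from -0.32 to -0.06 when 1 library was left out, the highest without library 3 of the 3-month KO group. The interaction median, 0.23, was 0.05 with libraries rescaled to equal sums without small RNA, 0.07 with quantile normalization, and 0.08 to 0.32 with 1 library left out, the lowest again without library 3 of the 3-month KO group. The rescaling shifted the median of all genes by 0.11 for KO against WT at 3 months and by -0.14 for the interaction, and negative interactions went from 30.6% to 44.9% of members. For age in KO it moved negative members from 61.2% to 71.4%, and the core median from 0.04 to -0.03. Depth is unknown, so the part of counting error in the low genes, such as Psmb8, Psmb9 and Psmb10, cannot be given.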
